A study of Homo sapiens with 75 samples.

Results

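BJ cells are normal human skin fibroblasts in culture, and the question addressed here is how their transcripts stood 6 h after a dose of 5 Gy of ionizing radiation. The 6 arrays compared were all those titled as BJ at 6 h, 3 from irradiated cells and 3 from mock-irradiated cells (called untreated, as in the labels), out of 75 arrays in the series. The series holds 5 cell lines in 5 groups of 3 arrays each: 3 groups without radiation, taken at 0 h, 3 h and 6 h, and 2 with it, taken at 3 h and 6 h. All BJ groups grew in serum-supplemented DMEM, and the controls went through the same handling without the radiation. The labels do not say whether the 3 replicates of a group were separate cultures or irradiations, so the p-values measure the spread between arrays, which may be technical, and with 3 arrays a group that number limits the precision. Of 19775 genes with a probe set of a single symbol, 14467 passed a limit on the mean level over the 15 BJ arrays (log2 3.47) and were tested.

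Double-strand breaks activate the kinase ATM, which stabilises the transcription factor p53. p53 induces the CDK inhibitor p21 (CDKN1A) and its own antagonist MDM2, and p21 keeps the retinoblastoma family of proteins active. These proteins repress genes of S phase through E2F elements, and genes of G2 and mitosis through the DREAM complex, which binds a promoter element called CHR. Skin fibroblasts are known for a lasting, p53-dependent cell cycle arrest after radiation, with little cell death. In bulk RNA, fewer cells of a type or cycle phase and less RNA per cell cannot be told apart.

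The labelled cell type was checked against its markers. All 12 fibroblast markers were above the level limit, with a mean of 11.53 to 11.71 in the 3 untreated arrays and 11.56 to 11.64 in the 3 irradiated ones. Of the markers measured for other cells, 3 of 8 keratinocyte or epithelial, 3 of 6 endothelial, 5 of 7 melanocyte, 5 of 9 B lymphoid, 5 of 9 hepatocyte and 3 of 6 osteoblast genes were above the limit, and the array means of each such list lay between 3.38 and 5.28 in both groups. These means cover high single genes. KRT18, KRT10 and KRT8, keratin genes, had untreated means of 11.40, 9.69 and 5.85, and MITF and MLPH, of the melanocyte list, 8.55 and 7.54, while KRT5, KRT14, CDH1 and EPCAM, further epithelial markers, were under the limit. Within each group the arrays correlated at 0.9895 to 0.9940 over all probe sets (Pearson's r). The 5' minus 3' difference of the ACTB control probe sets, a sign of RNA quality, was -1.18 to -0.70 in untreated and -1.07 to -0.60 in irradiated arrays.

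At 6 h 34 genes passed the test (limma, Benjamini-Hochberg adjusted p under 0.05), 0.235% of the genes tested: 21 were higher (0.145%) and 13 were lower (0.0899%) after radiation. The rises were small and tight: 2 of 21 reached 2-fold, and their standard errors had a median of 0.12 on the log2 scale. The falls were larger and more variable: 13 of 13 reached 2-fold, with a median standard error of 0.25. A gene with a larger error must differ more to pass, so the threshold by itself favours larger sizes among these falls. Of the 21 genes that rose, 13 are on a list of known p53 targets, which holds 56 of the 14467 genes tested. Of the 13 that fell, 10 are on a list of G2 and mitosis (79 tested) and 3 on one of S phase (60 tested). The place of ZNF367 on the last list was a choice of its author. The lists were written with earlier results of these data known, so these counts are descriptive. In each of the 34, the 3 irradiated arrays lay to one side of the 3 untreated ones, a separation seen in 10.8% of all genes tested. The same arrays gave the calls, and that choice by itself favours such a separation, so it is no further evidence for the called genes. The median difference over all genes was 0.02. Without irradiated replicate 1, 2 or 3 the count was 13, 13 and 12, and without untreated replicate 1, 2 or 3 it was 13, 19 and 20; CDKN1A, FAS, FST, GDF15, MDM2, PTP4A1, RDH10, TIGAR and ZNF367 were called in each of these 6 fits. When replicate 1, 2 or 3 was left out of every BJ group, the count was 11, 3 and 0. With a further quantile normalization 25 genes were higher and 28 lower.

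**Figure D1:**
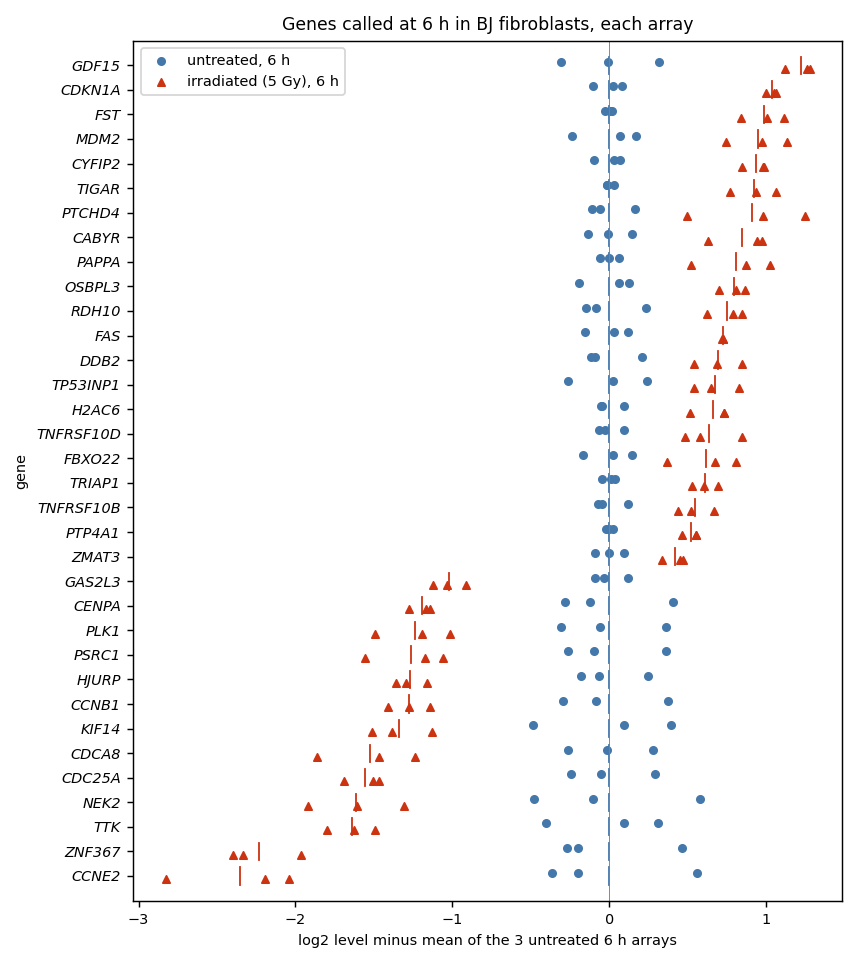
Each point is 1 array of BJ fibroblasts at 6 h, as its log2 level minus the mean of the 3 untreated arrays of that gene (x axis), for the 34 genes that passed the test (y axis), with circles for untreated, triangles for irradiated and vertical ticks for group means. The 3 triangles of every gene lie to one side of its 3 circles, from CCNE2 at -2.35 to GDF15 at 1.22.

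The p53 target list has 61 genes, of which 57 were measured and 56 tested. In BJ at 6 h 13 rose and 0 fell, 51 had a positive difference (54.4% of all genes tested did), and the median was 0.33. All 3 irradiated arrays were above all 3 untreated ones in 29 of the 56 (5.92% of all genes tested), and none of the 56 showed the reverse separation (4.90%). The mean of the 56 genes, set against the 0 h arrays, was 0.32, 0.36 and 0.37 in irradiated replicates 1, 2 and 3 and 0.01, -0.01 and -0.13 in the untreated ones, so these group values did not overlap.

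CDKN1A, the gene of the CDK inhibitor p21, is the main effector of p53-dependent cell cycle arrest. It stood at log2 11.53, 11.52 and 11.47 in the irradiated arrays and at 10.55, 10.49 and 10.36 in the untreated ones. The 3 irradiated values lay close together, and the lowest of them was 0.92 above the highest untreated value. The rise was 1.04 (SE 0.10, limma adjusted p = 2.23e-04), or 2.05-fold. ZMAT3, which codes for an RNA-binding protein, rose by 0.42 (adjusted p = 0.0449). Of the other arrest genes, GADD45A was higher by 0.32 (95% interval 0.15 to 0.49, adjusted p = 0.203) and CCNG1, the gene of cyclin G1, by 0.30 (adjusted p = 0.442), and neither passed. In this role 2 of 10 genes passed.

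The feedback genes of p53 had the highest median of the 6 roles (0.67), with 4 of 7 called. MDM2, the ubiquitin ligase that degrades p53, was at 8.84, 9.06 and 9.22 after radiation against 8.16, 8.26 and 7.85 without it. The groups were apart, and the difference was 0.95 (SE 0.12, adjusted p = 1.73e-03). TP53INP1, which codes for a cofactor of p53, rose by 0.67 (adjusted p = 0.0224) and TRIAP1, the gene of a small p53-regulated inhibitor of apoptosis, by 0.61 (adjusted p = 0.0105). PPM1D, the phosphatase WIP1 that ends the damage signal, was at 8.32, 8.30 and 8.35 against 7.56, 7.92 and 7.61; its difference of 0.63 (95% interval 0.35 to 0.91) missed the threshold at an adjusted p of 0.0678. PHLDA3, an inhibitor of AKT, was higher by 0.69 (adjusted p = 0.179).

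PTCHD4, a Patched-related membrane protein gene and known p53 target, was near the bottom of the measured range. Its untreated values of 3.50, 3.28 and 3.22 had a mean below the level limit, and the irradiated ones were 4.31, 3.83 and 4.58. The groups were apart, and the rise was 0.91 (SE 0.18, adjusted p = 0.0456), or 0.77 counted from the limit. DDB2, the damage-recognition subunit of nucleotide excision repair, stood at 8.46, 8.31 and 8.62 against 7.98, 7.68 and 7.66. It rose by 0.69 (SE 0.11, adjusted p = 0.0155), and its lowest irradiated value was above its highest untreated one.

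These are the members of the called set whose start regions hold a full p53 site, written as a pair of p53 consensus decamers 0 to 3 bases apart, with no mismatch. RefSeq promoters of GRCh38.p14 (250 bases before to 50 after each start) matched 16 of the 21 genes that rose, and PTCHD4 and DDB2 held such a site in at least 1 of their windows. Of 11564 genes tested that had a promoter in the table, 2 held one (0.0173%), and these were the 2. Of all 27305 genes with such a promoter, tested or not, 7 held one (0.0256%). PTCHD4 had a mean of 3.61 over the 15 BJ arrays, close to the limit of 3.47. That mean includes its irradiated values, so its place among the tested genes depended in part on its rise. The match is therefore only a description. The windows are chr6:48111148-48111447 on the minus strand for PTCHD4, with the site starting 20 bases before the start, and chr11:47214724-47215023 on the plus strand for DDB2, with the site starting at base 6 of the transcript. Capitals mark the p53 site, and also the CHR letters TTTGAA that overlap it in DDB2 and the CCAAT box (ATTGG on this strand) in PTCHD4.
PTCHD4: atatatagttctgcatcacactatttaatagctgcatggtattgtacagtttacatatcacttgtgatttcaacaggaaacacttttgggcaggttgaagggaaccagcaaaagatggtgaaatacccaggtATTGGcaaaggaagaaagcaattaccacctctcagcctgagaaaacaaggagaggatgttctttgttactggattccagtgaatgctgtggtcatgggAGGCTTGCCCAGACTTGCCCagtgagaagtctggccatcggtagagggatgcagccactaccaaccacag
DDB2: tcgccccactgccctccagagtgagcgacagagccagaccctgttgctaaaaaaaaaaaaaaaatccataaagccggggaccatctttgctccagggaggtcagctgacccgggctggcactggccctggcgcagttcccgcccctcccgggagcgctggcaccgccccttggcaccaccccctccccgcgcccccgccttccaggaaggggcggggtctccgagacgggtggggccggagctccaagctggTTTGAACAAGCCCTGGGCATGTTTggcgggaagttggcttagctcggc
A match of letters is a description of the sequence and was not tested for binding. CDKN1A and MDM2 had no full site in these windows, which says only that the letters were not in those 300 bases.

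Of the other repair and nucleotide genes, none passed besides DDB2, and all 7 in the role had a positive difference with a median of 0.54. RRM2B, the p53-dependent subunit of ribonucleotide reductase, was at 8.13, 8.36 and 8.10 against 7.61, 7.79 and 7.51 (0.56, adjusted p = 0.101). XPC, a damage sensor of excision repair, was higher by 0.34 (adjusted p = 0.411) and POLH, a translesion polymerase, by 0.63 (adjusted p = 0.443).

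Among 11 genes of apoptosis and death receptors, FAS and TNFRSF10B passed. FAS, the receptor of FAS ligand, was at 9.84, 9.86 and 9.85 in irradiated cells and at 9.25, 9.16 and 8.98 in untreated cells. The irradiated arrays were nearly identical and all above the untreated ones, a rise of 0.72 (SE 0.08, adjusted p = 2.68e-04). TNFRSF10B, the TRAIL receptor DR5, rose by 0.54 (adjusted p = 0.0131). TNFRSF10A, the TRAIL receptor DR4, was low, at 4.65, 4.73 and 4.73 against 3.90, 4.23 and 3.64 (0.78, 95% interval 0.27 to 1.28, adjusted p = 0.42). BAX, a pore-forming activator of apoptosis, was higher by 0.31 (adjusted p = 0.621) and TP53I3, a quinone oxidoreductase gene, by 0.23 (adjusted p = 0.709).

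In the metabolic role 1 of 8 genes passed. TIGAR, a fructose bisphosphatase that lowers glycolytic flux, was at 9.17, 9.34 and 9.47 against 8.43, 8.39 and 8.39, and the untreated arrays differed by 0.05 at most. Its rise was 0.92 (SE 0.10, adjusted p = 2.68e-04). The sestrins, which restrain mTORC1, were higher without passing: SESN2 by 0.41 (adjusted p = 0.117) and SESN1 by 0.63 (adjusted p = 0.272).

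Among the secreted, surface and cytoskeletal targets 3 of 13 passed, GDF15 with the largest rise of all genes called. GDF15, a stress cytokine of the TGF-beta superfamily, was at 8.90, 8.76 and 8.92 after radiation and at 7.95, 7.33 and 7.63 without it. The irradiated group lay wholly above the untreated one, whose values spread over 0.63. The difference was 1.22 (SE 0.15, adjusted p = 9.17e-04), or 2.33-fold. FST codes for follistatin, which binds activin, and stood at 8.82, 8.54 and 8.71 against 7.68, 7.72 and 7.71. It rose by 0.99 (SE 0.12, adjusted p = 1.32e-03) from an untreated level that was nearly the same on the 3 arrays. CYFIP2, which codes for a subunit of the WAVE actin regulatory complex, rose by 0.94 (adjusted p = 8.36e-03).

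The values of GDF15, MDM2, ZNF367 and CENPA come from probe sets of the x_at class, which can bind more than 1 transcript. ZNF367 and CENPA, which fell, had no other probe set to set beside the one used. Another GDF15 probe set above the level limit differed by 0.34, and of the other MDM2 probe sets the 1 closest in level (8.13 against 8.55) differed by 0.55. Over the called genes, 21 had further probe sets: 46 of the 47 above the limit had the sign of the one used, the exception being 1 of FBXO22 at -0.07, and 5 of the 11 below the limit did. When the probe sets of each gene were averaged, the differences were 0.41 for GDF15 (adjusted p = 0.225), 0.60 for MDM2 (adjusted p = 1.62e-03), 0.62 for CYFIP2 (adjusted p = 0.0225), 0.30 for TP53INP1 (adjusted p = 0.312) and 0.32 for FBXO22 (adjusted p = 0.396). In that fit 19 of the 34 called genes passed. Among the others that did not were CCNE2 (-1.94, adjusted p = 0.0560), NEK2 (-1.24, adjusted p = 0.215), PTP4A1 (0.36, adjusted p = 0.129) and TNFRSF10D (0.80, adjusted p = 0.528).

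The 7 other genes that rose outside any list were CABYR, PAPPA, OSBPL3, RDH10, TNFRSF10D, FBXO22 and PTP4A1, the last 3 named after their values were seen. PAPPA codes for a metalloproteinase that cleaves IGF-binding proteins, and was at 9.36, 9.20 and 8.86 against 8.27, 8.40 and 8.33 (0.81, adjusted p = 0.0273). RDH10, a retinol dehydrogenase gene, was at 10.76, 10.82 and 10.60 against 9.82, 10.21 and 9.89 (0.75, adjusted p = 1.20e-03). CABYR, the gene of a calcium-binding protein first described in sperm, rose by 0.85 (adjusted p = 0.018), and OSBPL3, an oxysterol-binding protein gene, by 0.79 (adjusted p = 0.0156). The groups did not overlap in any of these 4. TNFRSF10D, a decoy receptor of TRAIL, rose by 0.64 (adjusted p = 0.0194), FBXO22, an F-box protein gene, by 0.62 (adjusted p = 0.0456), and PTP4A1, a phosphatase gene, by 0.52 (adjusted p = 3.09e-03).

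The genes of G2 and mitosis stood lower almost as a whole. Of 79 tested, 10 fell and 0 rose, 78 had a negative difference (45.6% of all genes tested), and the median was -0.98. In 70 of the 79 the 3 irradiated arrays were all below the 3 untreated ones, against 4.90% of all genes tested. The mean of the 79 genes, relative to the 0 h arrays, was -1.36, -1.36 and -1.41 in the irradiated replicates and -0.08, -0.54 and -0.72 in the untreated ones. The irradiated arrays were close together and the untreated ones spread over 0.64, with untreated replicate 1 the highest. That array was also the highest untreated array in 12 of the 13 genes that fell. It also stood apart from the other untreated arrays in a sign of RNA quality: its ACTB 5' minus 3' difference was -0.70, against -1.17 and -1.18 in untreated replicates 2 and 3 and -0.76, -1.07 and -0.60 in the irradiated arrays, and the part of this in the result was not tested. Without it the list median was -0.78, and ZNF367 was the only gene of all tested that was called lower. How many of these genes passed depended on the fit: 47 of the 79 were called lower in a fit of the 6 arrays alone, where 83 of all genes tested were (0.574%), and 60 in a fit of all 75 arrays, where 128 were (0.885%).

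**Figure D2:**
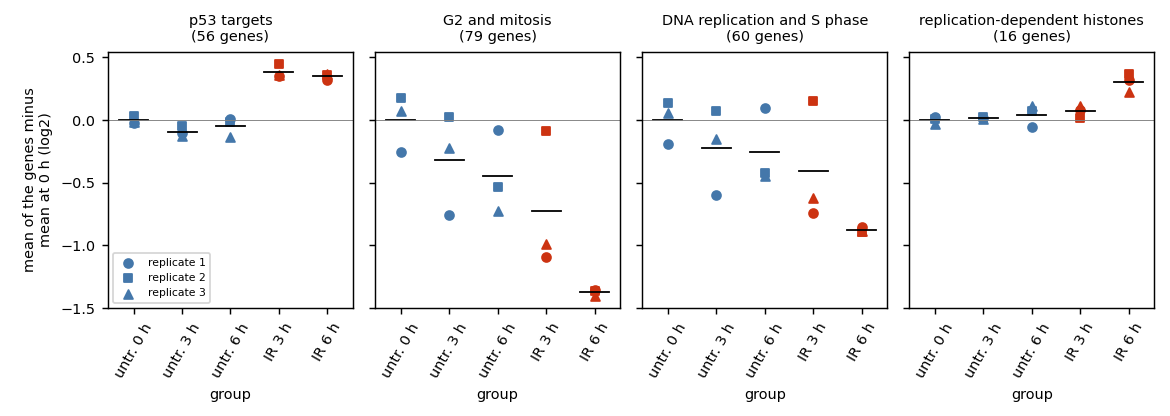
Points are single BJ arrays, placed by group on the x axis (untr., untreated; IR, irradiated) and by the mean of a gene list minus its mean at 0 h on the y axis (log2), with symbols for replicate numbers and bars for group means. Irradiated 6 h arrays sit together at -1.36 to -1.41 for G2 and mitosis and -0.85 to -0.89 for S phase, below each untreated 6 h array, while the p53 target and histone means lie above them.

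Mitotic kinases had the lowest median of the 6 roles (-1.13), and in all 12 the groups were apart. TTK, the spindle checkpoint kinase MPS1, was at 4.91, 4.60 and 4.78 after radiation and at 6.72, 6.50 and 6.00 without it. It fell by 1.64 (SE 0.31, adjusted p = 0.0401). NEK2, a centrosome-separating kinase, went from 7.07, 6.38 and 6.01 untreated to 4.88, 5.18 and 4.56 irradiated, and fell by 1.61 (SE 0.32, adjusted p = 0.0456). Both genes had their highest untreated value on replicate 1 and no overlap between groups. PLK1, the polo-like kinase that drives mitotic entry, was at 5.37, 5.19 and 4.89 against 6.75, 6.33 and 6.08. It fell by 1.24 (SE 0.20, adjusted p = 0.0155). Close to the threshold were BORA, an activator of Aurora A (-1.08, adjusted p = 0.0541), AURKA itself (-1.26, adjusted p = 0.0595) and the checkpoint kinase gene BUB1B (-1.18, adjusted p = 0.0976).

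Of 10 cyclin and CDK1 genes, CCNB1 fell. The gene of cyclin B1 was at 7.38, 7.51 and 7.25 against 9.03, 8.58 and 8.36, with the groups apart by more than the spread of either. The fall was 1.28 (SE 0.25, adjusted p = 0.0489). CCNA2, the gene of cyclin A2, differed by -1.18 (95% interval -1.81 to -0.56, adjusted p = 0.179), CKS2 by -0.95 (adjusted p = 0.242) and CDC25C by -1.02 (adjusted p = 0.377).

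Among 12 mitotic kinesins 1 was called. KIF14, a motor of cytokinesis, was at 6.22, 5.96 and 5.83 against 7.74, 7.44 and 6.86 and fell by 1.34 (SE 0.24, adjusted p = 0.0224). In 11 of the 12 kinesins the groups did not overlap. KIF18B (-1.37, adjusted p = 0.0678), KIF11 (-1.26, adjusted p = 0.0768) and KIF20B (-0.78, adjusted p = 0.084) came next.

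At the kinetochore and centromere 2 of 17 genes fell. CENPA, the histone H3 variant that marks centromeres, was at 5.51, 5.40 and 5.53 against 7.08, 6.40 and 6.56, and fell by 1.20 (SE 0.21, adjusted p = 0.0186). HJURP, the chaperone that loads it, was at 5.48 ± 0.10 against 6.75 ± 0.22 (mean ± SD, n = 3 each), and fell by 1.27 (SE 0.23, adjusted p = 0.0194). In both genes the 3 irradiated arrays were close together and below each untreated array. SGO2, a protector of centromere cohesion, differed by -1.38 (adjusted p = 0.0541), NDC80 by -1.31 (adjusted p = 0.125) and the kinesin gene CENPE by -1.14 (adjusted p = 0.179).

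The chromosomal passenger, cytokinesis and spindle role had 3 of 17 called. CDCA8, the passenger subunit borealin, was at 5.98, 5.75 and 5.35 against 7.50, 7.20 and 6.96 and fell by 1.52 (SE 0.26, adjusted p = 0.0168). PSRC1, a microtubule-binding protein gene, fell by 1.26 (adjusted p = 0.0186), and GAS2L3, which codes for a cytoskeletal linker active in cytokinesis, by 1.02 (adjusted p = 0.0155). FAM83D, DEPDC1 and ECT2 differed by -1.39, -1.48 and -0.85 with adjusted p of 0.0595, 0.0768 and 0.0928. In the anaphase and condensation role none of 11 passed, although CDC20, the activator of the anaphase-promoting complex, was at 6.77, 7.10 and 7.06 against 8.87, 8.28 and 8.17 (-1.46, adjusted p = 0.0604). The proliferation antigen gene MKI67 differed by -0.98 (adjusted p = 0.179).

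Promoters of PLK1, CDCA8 and CENPA are shown because they carry, within 300 bases, the CHR and CCAAT letters known from genes of this phase. The windows are chr16:23678639-23678938, chr1:37692266-37692565 and chr2:26785806-26786105, all on the plus strand of GRCh38.p14. Capitals mark TTTGAA (CHR), CCAAT or its reverse complement ATTGG, and, in CENPA, TTTCCCGC (E2F); in CDCA8 a CHR and an ATTGG share bases.
PLK1: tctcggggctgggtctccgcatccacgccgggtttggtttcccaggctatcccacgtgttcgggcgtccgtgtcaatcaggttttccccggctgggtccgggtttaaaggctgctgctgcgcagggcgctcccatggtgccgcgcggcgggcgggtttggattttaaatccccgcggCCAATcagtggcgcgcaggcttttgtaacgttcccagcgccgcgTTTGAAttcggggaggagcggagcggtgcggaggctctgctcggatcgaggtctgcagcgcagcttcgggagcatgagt
CDCA8: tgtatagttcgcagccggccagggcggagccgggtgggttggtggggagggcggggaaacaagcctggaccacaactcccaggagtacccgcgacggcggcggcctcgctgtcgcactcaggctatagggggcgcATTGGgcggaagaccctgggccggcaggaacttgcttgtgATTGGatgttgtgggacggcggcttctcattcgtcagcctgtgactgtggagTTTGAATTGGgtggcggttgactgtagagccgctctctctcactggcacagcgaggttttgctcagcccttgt
CENPA: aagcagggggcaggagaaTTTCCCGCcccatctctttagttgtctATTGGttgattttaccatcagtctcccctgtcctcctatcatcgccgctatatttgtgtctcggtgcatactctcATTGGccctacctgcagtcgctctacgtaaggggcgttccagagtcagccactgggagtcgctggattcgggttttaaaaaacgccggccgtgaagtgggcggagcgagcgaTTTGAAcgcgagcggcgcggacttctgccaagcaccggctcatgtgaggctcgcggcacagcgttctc
The CHR letters start 29, 23 and 18 bases before the start in these promoters. Searched on both strands, TTTGAA was in the promoters of 47 of 68 G2 and mitosis genes with a RefSeq promoter (69.1%), 4 of 52 S phase genes (7.69%) and 1617 of 11564 tested genes. CCAAT was in 76.5% of the former list and 42.3% of tested genes. The median difference at 6 h was -0.98 in the 47 genes with TTTGAA and -0.94 in the 21 without. In the called set, 11 of 13 genes that fell had a promoter, 5 of them with TTTGAA (45.5%) and 10 with CCAAT. Of the 21 that rose 16 had one, 6 with TTTGAA (37.5%) and 12 with CCAAT. A gene counted when any of its windows held the letters. The genes that fell had a single window each, while several that rose, such as MDM2 and PTP4A1, had more. That favours matches among the rises, so these shares are not like for like.

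S phase genes stood lower by a smaller median, -0.50, with the largest single falls. Of 60 tested, 3 fell and 0 rose, 59 had a negative difference, and in 33 all irradiated arrays were below all untreated ones (4.90% of all genes). The list mean relative to 0 h was -0.85, -0.89 and -0.88 in the irradiated arrays and 0.10, -0.42 and -0.45 in the untreated ones. Again the groups were apart and untreated replicate 1 was the highest; without that array the list median was -0.37.

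CCNE2, which codes for cyclin E2, the partner of CDK2 at S phase entry, had the largest fall of all genes tested. It was at 4.11, 3.95 and 3.32 in irradiated cells and at 6.71, 5.95 and 5.78 in untreated cells, so the lowest untreated value was 1.67 above the highest irradiated one. The fall was 2.35 (SE 0.41, adjusted p = 0.0186), or 5.11-fold. With the mean of its probe sets the difference of CCNE2 was -1.94 (adjusted p = 0.0560). Its paralog CCNE1 differed by -0.48 (95% interval -0.82 to -0.15, adjusted p = 0.515). CDC25A, the phosphatase that activates CDK2, was at 4.30, 4.07 and 4.26 against 6.05, 5.52 and 5.71. The groups were 1.22 apart at their closest, and the fall was 1.55 (SE 0.27, adjusted p = 0.018), and the difference was -0.90 (adjusted p = 0.181) with the mean of its probe sets. CDK2 itself differed by -0.53 (adjusted p = 0.741).

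ZNF367, a zinc finger gene that was placed with the fork genes, was at 5.13, 4.70 and 4.76 against 7.56, 6.90 and 6.82. No irradiated value came within 1.70 of an untreated one. It fell by 2.23 (SE 0.32, adjusted p = 3.65e-03), or 4.70-fold, and was the gene among the falls with the smallest adjusted p. The start regions of CDC25A and ZNF367, chr3:48188368-48188667 and chr9:96418321-96418620, both on the minus strand, are printed for their E2F letters: TTTGGCGC in CDC25A and, read on the opposite strand as GCGGGAAA, TTTCCCGC in ZNF367. Capitals mark these and CCAAT or ATTGG.
CDC25A: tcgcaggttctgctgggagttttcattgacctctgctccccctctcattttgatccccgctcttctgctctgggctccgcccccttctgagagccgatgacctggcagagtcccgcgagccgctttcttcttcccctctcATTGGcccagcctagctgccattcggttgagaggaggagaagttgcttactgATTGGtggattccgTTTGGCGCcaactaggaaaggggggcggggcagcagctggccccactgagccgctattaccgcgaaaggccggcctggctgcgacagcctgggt
ZNF367: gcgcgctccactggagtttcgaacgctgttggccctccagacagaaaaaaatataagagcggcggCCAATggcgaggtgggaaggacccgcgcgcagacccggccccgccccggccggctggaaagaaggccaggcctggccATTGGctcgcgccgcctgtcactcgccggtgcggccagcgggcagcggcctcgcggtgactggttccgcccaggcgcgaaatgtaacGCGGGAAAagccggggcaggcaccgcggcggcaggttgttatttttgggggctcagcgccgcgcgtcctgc
One or the other E2F word was in the promoters of 27 of 52 S phase genes (51.9%), 4 of 68 G2 and mitosis genes (5.88%) and 4.24% of tested genes, on both strands. S phase genes with such a word had a median difference of -0.54 (27 genes) and those without one -0.48 (25 genes).

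Origin licensing genes, which load the replicative helicase, had the lowest median among the S phase roles (-0.65); 11 of 12 had groups apart and none passed. CDC6, the helicase loader, was at 3.70, 3.27 and 3.67 against 5.72, 4.68 and 4.58 (-1.44, adjusted p = 0.229). CDT1, its partner, was at 4.59, 4.60 and 4.62 against 6.13, 5.45 and 6.45 (-1.41, adjusted p = 0.327), and GMNN, the gene of the CDT1 inhibitor geminin, differed by -0.87 (adjusted p = 0.284). In these 3 genes the irradiated values were closer to each other than the untreated ones were. Of 28 fork and polymerase genes 27 had a negative difference, with DTL, a substrate receptor for CDT1 destruction, at -1.63 (adjusted p = 0.0843) and UHRF1, which brings DNA methylation to new strands, at -1.48 (adjusted p = 0.14). The exception was PCNA, the sliding clamp and also a p53 target: it was at 10.60, 10.50 and 10.75 against 10.70, 9.77 and 9.75, a difference of 0.54 (95% interval 0.10 to 0.98, adjusted p = 0.702), and untreated replicate 1 lay among the irradiated values. The repressor gene E2F8 differed by -1.23 (adjusted p = 0.411) and RRM2, the S phase subunit of ribonucleotide reductase, by -1.11 (adjusted p = 0.42).

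Repair genes of double-strand breaks and stalled forks did not pass, 0 of 38 in either direction. In 12 the irradiated arrays were all lower (4.90% of all genes tested) and in 1 all higher (5.92%), and 30 differences were negative (45.6%) with a median of -0.19. The most negative was BRCA1, a homologous recombination gene, at -0.96 (95% interval -1.66 to -0.26, adjusted p = 0.584), followed by RAD51AP1 at -0.93 (adjusted p = 0.535). UBE2T, the ubiquitin-conjugating enzyme of the Fanconi pathway, differed by -0.79 (adjusted p = 0.42). H2AX, whose protein is phosphorylated around breaks, was at 8.58, 8.75 and 8.63 against 9.49, 9.10 and 9.15 (-0.60, adjusted p = 0.63).

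**Figure D3:**
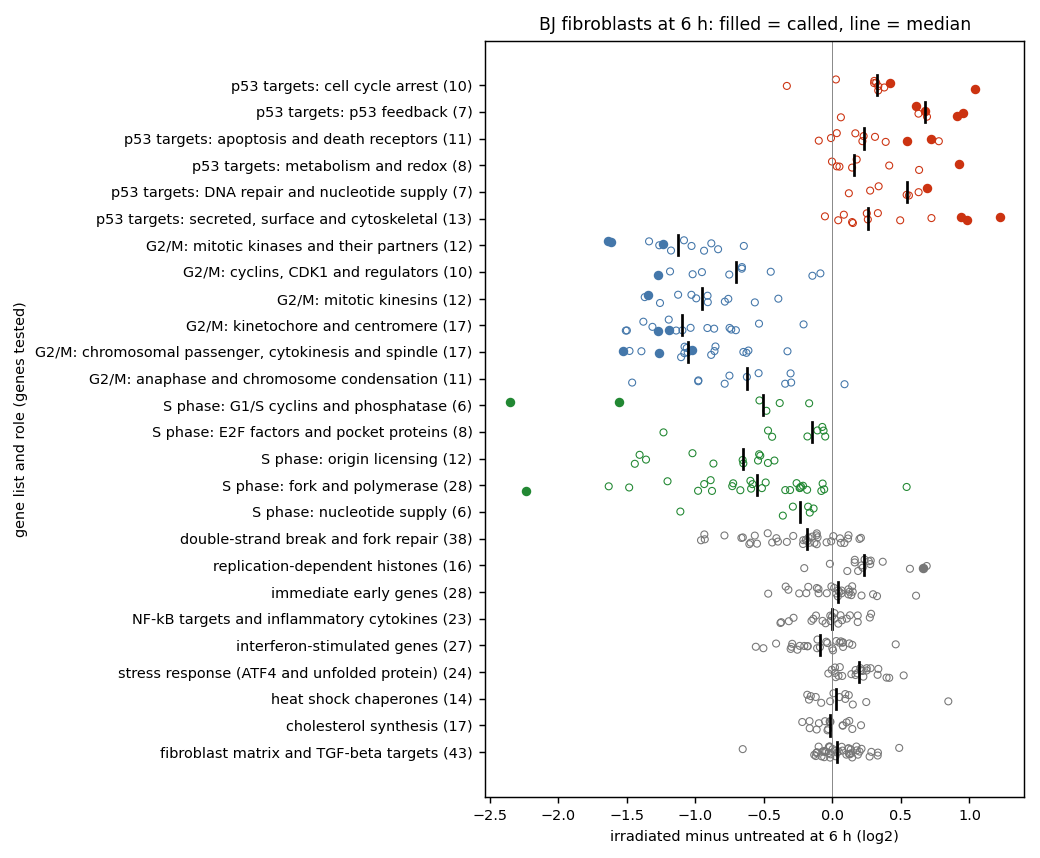
Each circle is 1 gene, placed by its irradiated minus untreated difference at 6 h in BJ (x axis, log2) within its list and role (y axis, with the number of genes tested); filled circles passed the test and black lines are medians. The G2/M and S phase roles lie left of 0, with medians of -1.13 for mitotic kinases and -0.65 for origin licensing, and the p53 roles lie right of it, while the matrix, inflammatory and cholesterol lists centre near 0.

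Replication-dependent histone genes, whose mRNAs normally lack poly(A) tails and are made in S phase, did not fall with the other S phase genes. Of 34 measured, 16 passed the level limit, 1 of them rose and 0 fell, and 14 differences were positive with a median of 0.23. H2AC6, a gene of histone H2A, was at 9.34, 9.12 and 9.34 against 8.56, 8.70 and 8.56. The groups were apart, and it rose by 0.66 (SE 0.13, adjusted p = 0.0489). H2BC5 was higher by 0.57 (adjusted p = 0.083) and H2BC4 by 0.69 (adjusted p = 0.39). In 6 of the 16 all irradiated arrays were above all untreated ones (5.92% of all genes). Histone genes are near-identical copies, so a probe set may report several of them.

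The remaining lists had 0 genes called in either direction. Immediate early genes, the first wave after many stimuli, had a median of 0.04 over 28 genes. ATF3, a stress-induced repressor, was at 5.20, 5.26 and 5.50 against 4.21, 5.02 and 4.89 (0.61, adjusted p = 0.722), and DUSP6, a phosphatase that dampens ERK, differed by -0.47 (adjusted p = 0.741). NF-kB targets and inflammatory cytokines had a median of -0.00 over 23 genes, within -0.38 to 0.28. Interferon-stimulated genes had a median of -0.09 over 27; TRIM22, an antiviral gene, was at 9.49, 9.63 and 9.56 against 9.14, 9.23 and 8.92 (0.46, adjusted p = 0.083) and IFIT1 differed by -0.56 (adjusted p = 0.415).

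ATF4 and unfolded protein genes, which answer amino acid and endoplasmic reticulum stress, had 22 of 24 positive differences, a median of 0.19, and 8 with the groups apart (5.92% of all genes tested were higher in this way). SLC3A2, an amino acid transporter subunit, was at 8.78, 8.56 and 8.71 against 8.28, 7.98 and 8.24 (0.52, adjusted p = 0.238). Heat shock chaperones had a median of 0.03 over 14 genes, with HSPA4L highest at 0.85 (adjusted p = 0.197). Cholesterol synthesis genes had a median of -0.02 over 17.

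Fibroblast matrix genes and TGF-beta targets had a median of 0.03 over 43 genes, with differences from -0.65 to 0.49. The 9 collagen genes differed by -0.12 to 0.13, for instance COL5A2 at 0.13 (95% interval -0.09 to 0.35, adjusted p = 0.959). FGF2, a growth factor gene, was at 9.82, 9.60 and 9.88 against 9.23, 9.41 and 9.19, apart but short of the threshold (0.49, adjusted p = 0.0662). MMP1, interstitial collagenase, was at 11.19, 10.98 and 10.87 against 12.47, 11.27 and 11.25. Untreated replicate 1 stood above the other 5 arrays, and the difference of -0.65 (95% interval -1.38 to 0.07) had an adjusted p of 0.88.

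To place the 6 h comparison in time, the same genes were read at 3 h. At 3 h 26 genes were called, 0.180% of those tested, and each was higher. The test of the difference between times (6 h effect minus 3 h effect) called 0 genes, with 302 at an unadjusted p under 0.05 (2.09%). Of the 26, 26 were still positive at 6 h, 11 were called there, and 21 had a smaller difference at 6 h. The 26 were chosen by their 3 h values, which by itself favours smaller differences at 6 h. PPM1D was at 1.68 at 3 h and 0.63 at 6 h, SESN1 at 1.48 and 0.63, GADD45A at 0.97 and 0.32 and GDF15 at 2.23 and 1.22. IER5, an early response gene named after its values were seen, was at 0.67 and 0.07. CDKN1A (1.28 and 1.04) and TIGAR (0.99 and 0.92) had like values at both times, with differences between times of -0.24 and -0.07. The count at 3 h was 12 without replicate 3, 13 without replicate 2 and 17 without replicate 1 of every group.

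Genes that fell at 6 h had smaller differences at 3 h: 12 of the 13 were negative there, none was called, and all 13 were lower at 6 h. CDC25A was at 0.13 at 3 h and CCNE2 at -0.21. In the test between times their differences were -1.68 (unadjusted p = 3.63e-04) and -2.15 (unadjusted p = 1.85e-03), and neither passed adjustment. PTCHD4 was at -0.07 at 3 h and 0.91 at 6 h (difference 0.98, unadjusted p = 1.27e-03). The 13 genes and PTCHD4 were chosen by their 6 h values, and the same arrays enter the difference between times. That choice by itself favours larger differences at 6 h, so these counts and unadjusted p-values are descriptive. The 3 h arrays spread widely for cell cycle genes. The mean of the 79 G2 and mitosis genes, relative to 0 h, was -1.09, -0.09 and -0.99 in irradiated replicates 1, 2 and 3. In the untreated ones it was -0.76, 0.02 and -0.22. Irradiated replicate 2 lay within the range of the untreated arrays, but each irradiated array was below the untreated array of its number. Deviations of same-numbered arrays correlated at 0.54, 0.52 and 0.31, so the numbers pair the 3 h arrays. The main fit did not use these pairs. For the S phase list, irradiated arrays were lower in replicates 1 and 3 and higher in replicate 2 (0.15 against 0.07).

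**Figure D4:**
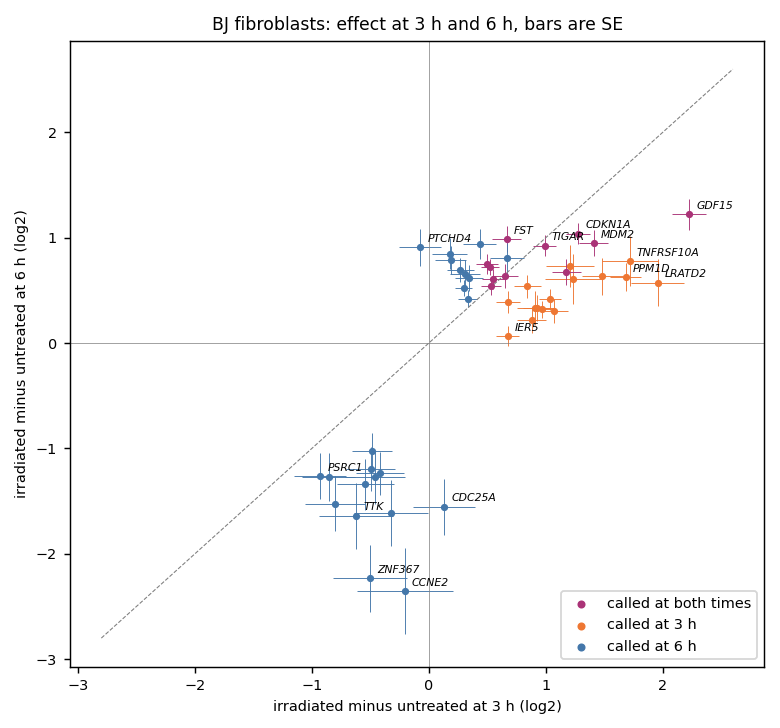
Irradiated minus untreated at 3 h (x axis) against 6 h (y axis), both log2 with bars of 1 SE, for each gene called at either time in BJ; the dashed line marks equal values. Most genes called at 3 h, such as GDF15 (2.23 and 1.22), lie below the line, and the genes that fell, such as CCNE2 (-0.21 and -2.35), lie far below it.

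Untreated cells were also compared over the 6 h, with the same arrays that serve as controls above. Untreated 6 h against 0 h called 1 gene (0.00691%), the receptor gene S1PR3, with 1061 at an unadjusted p under 0.05 (7.33%). The median of the G2 and mitosis list was -0.46 in this comparison and -1.47 in irradiated 6 h against untreated 0 h. For S phase genes these medians were -0.25 and -0.72, and for p53 targets -0.02 and 0.34. Irradiated 6 h against 0 h called 301 genes (2.08%), 201 of them lower (1.39%), and 66 of the 79 G2 and mitosis genes and 17 of the 60 S phase genes were among the lower ones. Without replicate 1, 2 or 3 of every group the first comparison called 3, 0 and 0 genes and the other 302, 91 and 0. These comparisons share arrays with the main one, so their values stand side by side and are no separate evidence.

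The size of the radiation effect at 6 h was compared with that in U2OS osteosarcoma cells and TK6 B lymphoblastoid cells, handled in the same groups. The effect differed from U2OS for 21 genes (0.138% of 15262) and from TK6 for 236 (1.55% of 15261), by limma on all 75 arrays. That fit holds 1 variance per gene for all lines, so its errors can be too small or too large for BJ. In it the BJ comparison itself called 128 genes lower, against 13 in the fit of the BJ arrays. Calls between lines for cell cycle genes carry this limit. Without replicate 1, 2 or 3 of every group the first count was 22, 1 and 0 and the second 240, 67 and 83. Of the 34 genes called in BJ, 4 differed from U2OS and 12 from TK6. CCNE2 was near 0 in both other lines, at 0.01 in U2OS and -0.08 in TK6, and the differences were -2.36 (SE 0.48, adjusted p = 8.83e-03) and -2.27 (SE 0.48, adjusted p = 2.21e-03). ZNF367 was at -0.34 in U2OS and -0.25 in TK6, and the differences of -1.90 and -1.98 passed (adjusted p = 3.87e-03 and 1.42e-04). In the S phase list 4 of 60 genes were lower in BJ than in U2OS (0.105% of all genes tested), CDC6 and DTL besides these, and 14 of 60 lower than in TK6 (1.40%). The list medians were -0.50 in BJ, -0.02 in U2OS and -0.06 in TK6.

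For G2 and mitosis the list medians were -0.98 in BJ, -0.59 in U2OS and -0.25 in TK6. No gene of the 79 passed the test of the difference from U2OS, where 20 were lower in BJ at an unadjusted p under 0.05 (2.04% of all genes) and 0 higher, and 16 were lower than in TK6. PLK1 was at -1.40 in U2OS (difference 0.16, SE 0.29) and PSRC1 at -1.47 (difference 0.21, SE 0.29), so neither differed by more than its error. HJURP was at -0.03 in TK6 (difference -1.24, adjusted p = 1.55e-03) and TTK at -0.27 (difference -1.37, adjusted p = 6.64e-03).

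For the p53 targets the effect was lower in BJ than in TK6 for 18 of 57 genes tested (1.40% of all genes) and lower than in U2OS for 3 of 56 (0.105%). Of the former DDB2, GDF15, TP53INP1 and ZMAT3 were called higher in BJ itself, and of the latter GDF15. GDF15 rose by 2.81 in U2OS and 3.16 in TK6, and the differences were -1.58 (adjusted p = 0.0101) and -1.94 (adjusted p = 6.05e-05). TP53INP1 rose by 3.21 in TK6, with a difference of -2.54 (adjusted p = 1.71e-05). For CDKN1A the differences of -0.37 (SE 0.38) from U2OS and -0.77 (SE 0.38, adjusted p = 0.597) from TK6 did not pass, and for CYFIP2 (-0.02, SE 0.22) and TIGAR (-0.15, SE 0.22) the values in BJ and U2OS were within 1 SE.

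For a few genes the effect was higher in BJ. H2AC6 fell by 0.86 in U2OS (adjusted p = 6.83e-03) and by 1.09 in TK6 (adjusted p = 1.13e-03), and the differences of 1.52 and 1.75 passed (adjusted p = 4.02e-03 and 2.98e-05). Its value of 0.66 in BJ did not pass in the fit of all 75 arrays that gave these differences (adjusted p = 0.134), nor in any of the 6 fits that left out 1 of the compared arrays. RDH10 was at 0.24 in U2OS and -0.13 in TK6, and its difference from TK6, 0.88, passed (adjusted p = 0.0292).

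**Figure D5:**
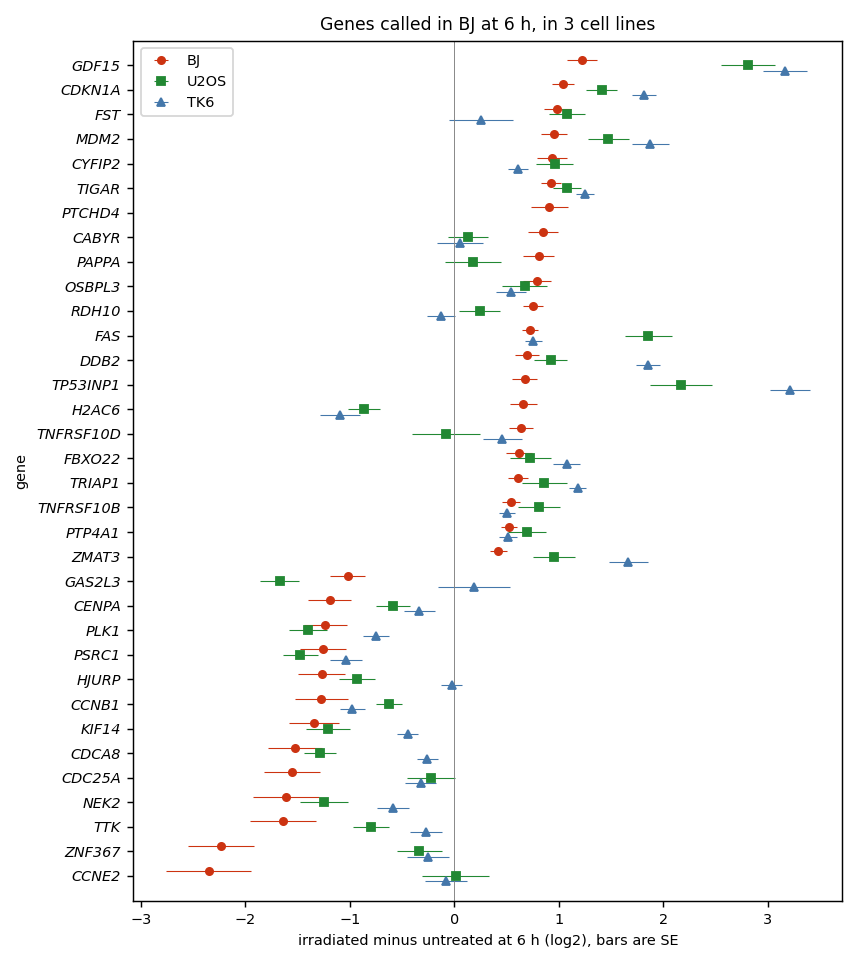
Irradiated minus untreated at 6 h (x axis, log2, bars of 1 SE) for the 34 genes called in BJ (y axis), in BJ (circles), U2OS (squares) and TK6 (triangles); a line is missing where the gene was under its level limit. CCNE2 and ZNF367 lie far left in BJ alone, H2AC6 is right of 0 in BJ and left of it in the others, and GDF15 and TP53INP1 reach 3.16 and 3.21 in TK6.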

How the data were processed

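The files hold log2 values of 54675 Affymetrix probe sets on 75 arrays, deposited by the authors. The submitters' processing notes name RMA (robust multi-array average, which corrects background, normalizes and summarises probes). Its version and the set of arrays it was run on are not given in the sources used here. RMA pulls array distributions together, so a shift shared by most genes would not be seen. Of the probe sets, 41097 carried 1 gene symbol in the platform annotation, 1801 several and 11777 none; genes were taken from the first kind, and of several probe sets for a gene the 1 with the highest mean over all arrays was used. Genes were kept when their mean over the 15 BJ arrays was above the 40th percentile of probe-set means.

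All 15 BJ arrays were fitted with 5 group means (10 residual degrees of freedom) in limma 3.58.1 (R 4.3.3) with a trended prior, Benjamini-Hochberg adjustment over 14467 genes and a call at an adjusted p under 0.05. Standard errors are those of limma, and 95% intervals come from the same fit. Differences between lines used 1 fit of 75 arrays with 25 group means. The fit was tested on simulated data with independent noise in each gene and array. Such data cannot show how the fit behaves when many genes vary together on an array. Sequences are from RefSeq on GRCh38.p14, which serves the promoters alone, since no build was used for the arrays.

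Named genes were the called genes (the 15 largest rises and falls), called members of the lists, and up to 3 uncalled members a role by adjusted p; others are said to be named after their values were seen. The comparison, gene lists and markers were chosen with earlier results of these data known. Alternatives changed the level filter, the normalization, the probe set rule, the arrays in the fit, the variance prior, the replicate number as a block, and the arrays left out.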

Additional observations from a re-analysis of the deposited data

Results flagged for a closer look

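The effect of radiation at 6 h differed between cell lines by a test of the difference itself (limma, adjusted p under 0.05) for 21 genes between BJ and U2OS and for 236 between BJ and TK6. The fit held a single variance per gene for all lines, which need not be that of BJ. Among the 34 genes called in BJ, the difference BJ minus U2OS was -2.36 for CCNE2, -1.90 for ZNF367, -1.58 for GDF15 and 1.52 for H2AC6. Against TK6 CCNE2, ZNF367 and CDC25A, placed on the S phase list, differed by -2.27, -1.98 and -1.23. The mitotic genes TTK, CDCA8 and HJURP differed by -1.37, -1.27 and -1.24. The p53 targets TP53INP1, GDF15, ZMAT3 and DDB2 rose less in BJ than in TK6, by -2.54, -1.94, -1.24 and -1.17. RDH10 and H2AC6 were higher in BJ than in TK6 by 0.88 and 1.75.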

How the results depend on the processing

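Under the 16 alternatives of the main comparison no called gene changed direction: of 544 gene values, 304 stayed called and 240 kept their sign without passing. Only quantile normalization and averaged probe sets could have changed a direction. The other alternatives kept the difference of means, or left arrays out of groups that did not overlap, so the kept signs there are no sign of stability. The number of calls moved more. Against 34 in all and 13 lower, quantile normalization gave 53 and 28, a fit of all 75 arrays 148 and 128, and a fit of the 6 arrays alone 105 and 83; averaging a gene's probe sets gave 7 lower. The cause was not tested. Leaving out 1 of the 6 arrays gave 12 to 20 in all, 10 to 15 higher and 1 to 9 lower, and leaving out a replicate number from every group gave 0 to 11, 0 to 7 and 0 to 4.

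The replicate number as a replicate block gave 75 calls, 36 higher and 39 lower, 6 for untreated 6 h against 0 h and 625 for irradiated 6 h against untreated 0 h. Deviations of same-numbered irradiated and untreated arrays correlated at 0.26, -0.03 and 0.13 at 6 h, and untreated 6 h and 0 h arrays at 0.11, 0.08 and 0.36, so not every pair passed 0.1 there. At 3 h they correlated at 0.54, 0.52 and 0.31 and every array with its own number best, so the numbers pair the 3 h arrays; the block gave 32 calls there against 26. Replicate 1 had the ACTB 5' minus 3' difference nearest 0 in each BJ group except irradiated 6 h, where replicate 3 had it. Whether the 6 h arrays are paired is not settled by these values. The difference between 6 h and 3 h called 0 genes under each alternative run. Untreated 6 h against 0 h called 0 to 3 genes with a replicate number left out, and irradiated 6 h against 0 h 0 to 302. BJ minus U2OS called 10 genes in a fit of the 2 lines' arrays and 0 to 22 with a replicate number left out; BJ minus TK6 called 67 to 240. List medians kept to -1.09 to -0.78 for G2 and mitosis, -0.58 to -0.37 for S phase and 0.31 to 0.38 for p53 targets. With 3 arrays a group, even differences of several standard errors could miss the threshold. Examples were CDCA7 (-1.82, SE 0.39, limma adjusted p = 0.0678) and RASGRP1 (1.12, SE 0.24, adjusted p = 0.0741). A gene that was not called is therefore not shown to be unchanged.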

Other observations

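Outside the lists, the largest differences that did not pass the test were read after the values were seen. Among the lower ones, CDCA7, which codes for a regulator of DNA methylation at repeats, was at 4.52, 4.39 and 4.50 in irradiated replicates 1, 2 and 3 and at 7.17, 5.90 and 5.79 in untreated ones (-1.82, SE 0.39, limma adjusted p = 0.0678). LMNB1, the lamin B1 gene of the nuclear envelope, was at 5.36, 4.78 and 3.99 against 6.70, 6.19 and 5.63 (-1.47, adjusted p = 0.203). CDCA2, a mitotic phosphatase-targeting subunit gene, differed by -1.35 (adjusted p = 0.0678). In all 3 genes the irradiated arrays were below the untreated ones.

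Among the higher ones, RASGRP1, an activator of RAS, was at 5.36, 4.90 and 4.87 against 4.01, 4.45 and 3.30 (1.12, SE 0.24, adjusted p = 0.0741), with the groups apart. FOLR1, a folate receptor gene, had the largest positive difference of the genes tested, 1.62 (SE 0.83, adjusted p = 0.869). It was at 10.66, 10.92 and 10.84 after radiation and at 10.56, 10.84 and 6.15 without it, and untreated replicate 3 stood far below the other 5 arrays.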
